A study of Mus musculus with 216 samples.

Results

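Skeletal muscle of old male mice (27 months) was compared with that of young adult males (6 months) of the C57B6/J-NIA strain. The comparison holds 24 of the 216 libraries of a time course over 6 tissues, chosen by tissue and age alone. Each age has 12 libraries, 1 at each circadian time from 18 to 62 h in steps of 4 h. Each library pools 2 samples and was made from poly(A) RNA, and the mice were untreated as far as the labels say. Muscle of aged mice (18 months, 12 libraries) serves as an intermediate age, and the young and old libraries of heart and of the other 4 tissues serve to show where muscle differs. The labels do not say which muscle was taken, nor whether the pooled samples came from 2 animals. Values are CPM, the count of a gene scaled to the total count of its library, and differences between ages are log2 changes with their standard error (±), tested with circadian time as a block. Each age and time has 1 library here, so p-values rest on the spread of the old against young difference over the 12 times.

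The libraries are muscle by their markers. The 7 fibre markers together (among them Ckm, Acta1, Myh4 and Ttn) gave 58357 to 72651 CPM in young and 64755 to 110916 CPM in old libraries. Old libraries were shallower, with 3595165 to 18126647 counts against 15239373 to 27623643 in young and 10963390 to 20664436 in aged. RNA of other organs differed between the sets of libraries, and lung RNA set the old libraries apart from both younger ages. All 7 lung epithelium markers tested were called lower in old against aged, and 0 in aged against young. The 7 lung epithelium markers, such as surfactant genes, summed to 81.5 to 338 CPM in young, 43.4 to 1447 CPM in aged (highest at 26 h) and at most 2.19 CPM in old muscle. Their young muscle levels were 0.323% to 3.89% of those in young lung (median 0.446%). The 6 kidney tubule markers summed to at most 0.491 CPM in young and reached 68.6 CPM in the old library at 26 h. White adipose markers were highest in the old library at 58 h and the aged library at 54 h, with 863 CPM in each, against 155 to 457 CPM in young. The old library at 62 h, the shallowest, had Per2 at 11.96 CPM, against 24.6 CPM in the old library 24 h earlier and 35.9 CPM in the young library at 62 h. Its levels of Nr1d1, Dbp, Arntl and Ciart are given with the other observations. Shorter transcripts were higher in old libraries more often than long ones: of 4 equal classes by transcript length, 25.9% of genes in the shortest and 8.15% in the longest were called higher. Results were therefore also computed without the library pair at 62 h, at equal depth and with the trend on length and GC content removed.

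A muscle fibre is held by its motor nerve at the neuromuscular junction, where acetylcholine receptors (subunits Chrna1, Chrnb1, Chrnd and, in the adult, Chrne) are clustered by the receptor kinase MuSK and the scaffold rapsyn. When a fibre loses its nerve, or regenerates, it is known to express receptor and myogenic genes along its whole length again, together with developmental myosins and stress regulators. Loss of motor nerve contacts, of muscle mass and of satellite cells is well known in muscle ageing. The results below follow these roles: denervation and synapse genes, nerve sheath, contractile apparatus, protein turnover and energy metabolism, then matrix, vessels, stem cells and immune genes.

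Promoters are shown first for 3 synapse genes that rose together, Chrna1, Chrnb1 and Musk, and for Chrne, the adult receptor subunit, which did not pass the test. Each line gives the 250 bases before a transcription start in RefSeq (GRCm38.p6), read in the direction of the gene, with E-boxes in capitals. An E-box is CANNTG, the motif bound by MyoD and myogenin, and reads the same on both strands. CAGCTG is one of its forms and is counted in both. The windows lie at chr2:73580339-73580588 (minus strand), chr11:69795938-69796187 (minus strand), chr4:58285712-58285961 (plus strand) and chr11:70619195-70619444 (minus strand). The annotated Musk gene begins at 58285729, so most of its window lies inside the gene, before a start further downstream. The windows of Chrnb1 and Chrne also reach into their genes, which begin at 69795966 and 70619213.
Chrna1: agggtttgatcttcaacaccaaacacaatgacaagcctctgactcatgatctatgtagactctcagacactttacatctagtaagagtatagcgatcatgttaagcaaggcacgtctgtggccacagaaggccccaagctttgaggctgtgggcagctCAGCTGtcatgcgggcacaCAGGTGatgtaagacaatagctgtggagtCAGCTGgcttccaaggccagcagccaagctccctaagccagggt
Chrnb1: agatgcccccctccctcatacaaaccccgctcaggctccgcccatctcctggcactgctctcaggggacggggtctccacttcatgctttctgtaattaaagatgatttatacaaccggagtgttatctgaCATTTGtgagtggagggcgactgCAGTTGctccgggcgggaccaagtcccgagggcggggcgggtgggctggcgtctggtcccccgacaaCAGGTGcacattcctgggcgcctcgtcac
Musk: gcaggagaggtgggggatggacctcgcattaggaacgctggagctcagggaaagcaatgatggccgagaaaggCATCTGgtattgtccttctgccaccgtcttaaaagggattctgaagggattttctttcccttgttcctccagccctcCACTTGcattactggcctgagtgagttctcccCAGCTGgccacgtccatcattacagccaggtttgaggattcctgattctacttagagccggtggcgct
Chrne: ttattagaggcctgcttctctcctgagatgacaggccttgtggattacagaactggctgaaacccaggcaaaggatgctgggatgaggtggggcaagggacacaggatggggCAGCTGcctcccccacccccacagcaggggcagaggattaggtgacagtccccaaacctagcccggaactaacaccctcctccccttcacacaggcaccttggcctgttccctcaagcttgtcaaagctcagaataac
The windows of Chrna1, Chrnb1 and Musk each hold 3 E-boxes and that of Chrne holds 1. Chrna1 has 2 CAGCTG sites, which begin 92 and 44 bases before the start, Musk has 1 at 68 bases, Chrne has 1 at 138 bases, and Chrnb1 has none in this window. Of all 32851 promoter windows of this length, 66.2% hold at least 1 E-box, 12.2% hold at least 3, 13% hold a CAGCTG and 1.26% hold at least 2. Of the 16 synapse genes listed, 10 matched a window, with 13 windows in all. Of these 13, 10 hold at least 1 E-box (76.9%), 4 at least 3 (30.8%) and 4 a CAGCTG (30.8%). The 4 windows shown are among the 13, and whether E-box number goes with the change in level was not tested.

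Between 27 and 6 months, edgeR's quasi-likelihood test called 4991 of 13990 genes tested (35.7%) at an adjusted p under 0.05, 2414 higher in old (17.3%) and 2577 lower (18.4%). Changes over 2-fold were fewer, with 268 genes higher (1.92%) and 256 lower (1.83%). A called change kept the same sign at all 12 times in 1212 genes (8.66%). The 12 old and 12 young libraries did not overlap in 60 genes that were higher (0.429%) and 241 that were lower (1.72%). These shares are the background for each group below, and the median change over all genes tested was -0.0046. In bulk tissue, fewer cells of a type and less RNA per cell cannot be told apart.

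The largest rise by the rule for naming genes was in Krt18 (chr15:102028216-102032026), a keratin of simple epithelia. Its lowest, median and highest levels were 0.305, 1.04 and 1.67 CPM in young and 4.39, 13.2 and 38.9 CPM in old libraries. The old libraries at 50, 18 and 26 h were highest, with 38.9, 35.6 and 33.6 CPM, and every old library lay above every young one. The log2 change was 4.07 ± 0.32 (adjusted p 3.23e-07), 16.8-fold. At the highest ratio of any kidney marker, epithelial RNA carried in from kidney would add 0.432 CPM of Krt18 to an old library. The part of kidney RNA in this rise was not tested. At the median lung marker ratio, lung RNA would give 0.674 CPM of the 1.03 CPM seen in young muscle, and 5.87 CPM at the highest, and how much of the young level was lung RNA was not tested. Its partner Krt8 rose by 1.84 ± 0.36 (adjusted p 0.000981), from 1.09 ± 0.664 to 4.02 ± 2.78 CPM (SD, n = 12), and was higher in old at 9 of 12 times. For Krt8 the same reckoning gives 2.27 CPM (highest ratio) from kidney in old and 1.26 CPM (median ratio) or 11.02 CPM (highest ratio) from lung in young. These are of the order of its levels or above them, and their part in its change was not tested.

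Most listed genes of denervated or regenerating muscle rose. Of 23 tested, 15 were higher in old (17.3% of all genes tested were) and 2 lower (18.4%), with a median change of 1.04. Krt18 is a member of this list and counts among these rises. The list was chosen with earlier results of these data known, so its counts are descriptive. Sarcolipin (Sln), a small inhibitor of the sarcoplasmic calcium pump, had 1.59, 2.34 and 3.56 CPM as lowest, median and highest value in young and 7.75, 23.9 and 87.1 CPM in old. The groups did not overlap, and the change was 3.41 ± 0.27 (adjusted p 3.59e-07). Mybph, a myosin-binding protein, had 22.3, 48.98 and 123 CPM in young and 69.2, 204 and 435 CPM in old. Its groups overlapped although old was higher at all 12 times, by 2.12 ± 0.26 (adjusted p 2.82e-05). The developmental myosins also rose: perinatal Myh8 by 1.51 ± 0.14 (adjusted p 8.11e-07), without overlap, and embryonic Myh3 by 1.05 ± 0.26 (adjusted p 0.00624).

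Most regulators of this response moved the same way. Myogenin (Myog), a myogenic transcription factor, had 2.43, 4.07 and 6.89 CPM in young and 4.19, 7.99 and 20.4 CPM in old, and was higher at all 12 times (1.18 ± 0.19, adjusted p 0.000239). Runx1, a transcription factor known to be induced by denervation, had 1.90, 2.68 and 3.34 CPM in young and 3.40, 5.76 and 12.9 CPM in old, with no overlap (1.38 ± 0.17, adjusted p 2.07e-05). The stress gene Gadd45a, known to rise in denervated and wasting muscle, had 24.2, 32.5 and 34.8 CPM in young and 43.3, 62.4 and 143.7 CPM in old, again with no overlap (1.26 ± 0.15, adjusted p 1.5e-05). Cdkn1a, the cell-cycle inhibitor p21, rose by 1.44 ± 0.15 (adjusted p 3.63e-06). The change of Myod1 was smaller at 0.29 (adjusted p 0.00436). The 2 members that fell were Sox4 (-1.21, adjusted p 0.00055), a developmental transcription factor, and nestin, Nes (-0.33, adjusted p 0.0201), an intermediate filament of immature fibres and nerve sheath cells. Lung RNA would give 0.608 CPM of Sox4 at the median and 5.305 CPM at the highest lung marker ratio, against 8.74 CPM in young and 3.93 CPM in old, and its part in this fall was not tested. Leaving out the pair at 18 h or at 34 h left 1 of these falls. Ankrd1, a stress-response protein of the sarcomere, rose by 0.88 (adjusted p 0.0351), but this call was lost without some single times, with an adjusted p of up to 0.0889. The fetal receptor subunit Chrng was too low to be tested, with 22 counts over the young and 91 over the shallower old libraries, in 10 and 11 of 12 libraries.

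**Figure D1:**
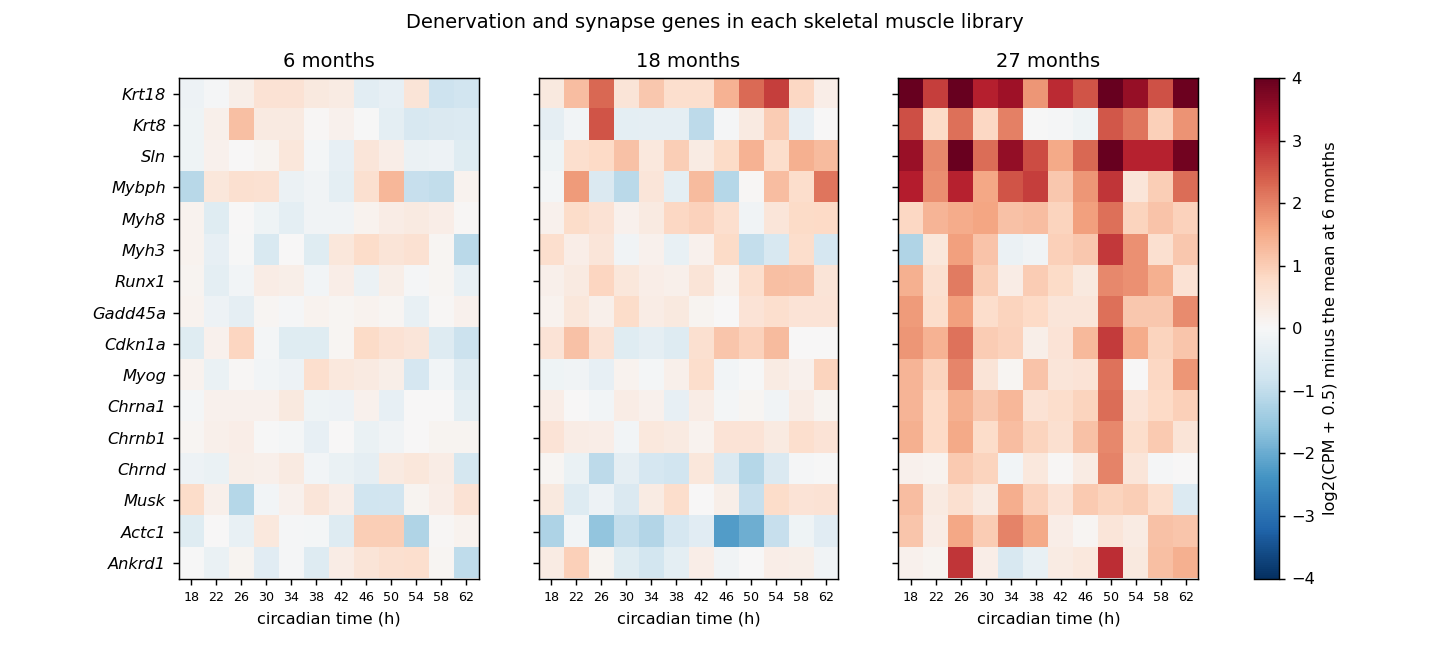
Log2(CPM + 0.5) of 16 denervation and synapse genes in each of the 36 muscle libraries, minus the mean at 6 months, by circadian time (h) and age. Only genes called higher in old against young muscle are shown. The old library at 50 h holds the highest old value of 11 of the 16 genes, and libraries of 18 months mostly stay near the young level.

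The strength of this pattern differed between old libraries. For 11 of the 16 genes in the map of denervation and synapse genes, the old library at 50 h was the highest of the 12, and no old library at 22, 30, 38, 42, 46, 54, 58 or 62 h was the highest for any of them. All 16 were put on the map as genes called higher in old muscle in these same libraries. The fits below therefore show only how far these calls depend on single times. With each time left out in turn, 15 of the 16 genes were called in every fit, and Ankrd1 was not. Without each time in turn, Krt18 changed by 3.89 to 4.23, Sln by 3.25 to 3.56 and Gadd45a by 1.18 to 1.35. In the first cycle (18 to 38 h) and the second (42 to 62 h), fitted apart, Krt18 rose by 3.85 and 4.40. In the first cycle alone 14 of the 16 were called, without Myh3 and Ankrd1. In the second alone 10 were, without Krt8, Myog, Chrnd, Musk, Actc1 and Ankrd1.

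**Figure D2:**
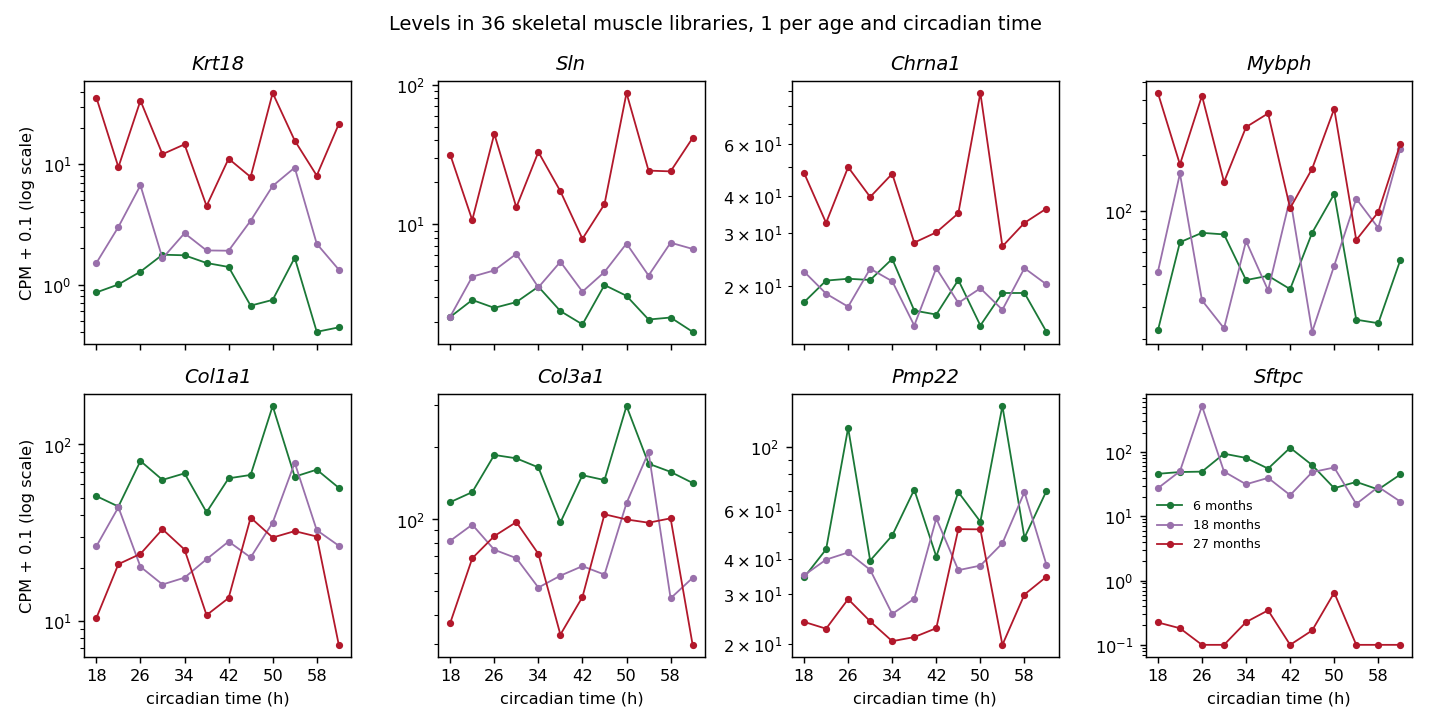
CPM + 0.1 on a log axis against circadian time (h) for 8 genes in the 36 muscle libraries, 1 point per age and time. Old libraries lie above all young ones for Krt18, Sln and Chrna1 and below them for Col1a1 and Sftpc, a lung gene, while the ages overlap for Mybph, Col3a1 and Pmp22.

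At the synapse, receptor subunits and MuSK rose while most other synapse genes did not pass the test. Of 15 genes tested, 5 were higher and 1 lower, with a median change of 0.03. Chrna1 (chr2:73563281-73580338), the receptor alpha subunit, had 13.9, 18.8 and 24.5 CPM as lowest, median and highest value in young and 26.98, 35.5 and 88.6 CPM in old. The groups did not overlap (1.18 ± 0.14, adjusted p 1.14e-05), and the old library at 50 h stood highest. The beta subunit Chrnb1 had 25.2, 32.4 and 38.5 CPM in young and 46.2, 63.1 and 122 CPM in old, also without overlap (1.17 ± 0.11, adjusted p 1.76e-06). The delta subunit Chrnd rose by 0.61 ± 0.17 (adjusted p 0.0093), Musk by 0.86 ± 0.19 (adjusted p 0.00268) and rapsyn, Rapsn, by 0.24 ± 0.07 (adjusted p 0.0118). The adult subunit Chrne had 12.7, 19.3 and 24.1 CPM in young and 10.3, 15.2 and 25.8 CPM in old, and its change of -0.12 ± 0.11 did not pass (adjusted p 0.428). Etv5, a transcription factor of synaptic nuclei, fell by 0.57 on the log2 scale (adjusted p 0.000249), without overlap. Lung RNA would give 0.842 CPM of Etv5 at the median and 7.34 CPM at the highest lung marker ratio. Its means were 14.5 CPM in young and 9.13 CPM in old, and the part of lung RNA in this fall was not tested. Acetylcholinesterase (Ache, -0.05), its collagen tail (Colq, 0.03), agrin (Agrn, -0.19), Lrp4 (0.24) and Dok7 (0.18) gave adjusted p of 0.0819 or more. Whether reads were counted by strand is not given in the sources used here, so genes that overlap on opposite strands cannot be told apart.

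Markers of Schwann cells, which wrap the motor axons, were lower in old muscle. Of 8 tested, 7 fell and none rose, with a median change of -1.09. Their summed level was 86.7 to 542 CPM in young and 52.9 to 186 CPM in old libraries. Pmp22, a membrane protein of compact myelin, had 34.3, 51.3 and 140.3 CPM as lowest, median and highest value in young and 19.7, 23.9 and 50.98 CPM in old. It was lower in old at all 12 times (-0.97 ± 0.18, adjusted p 0.000795), but the groups overlapped over the day, since the old libraries at 46, 50 and 62 h stood above the lowest young library, that at 18 h. Mag, a myelin adhesion protein, changed by -1.80 ± 0.29 (adjusted p 0.000193) and periaxin, Prx, by -1.50 ± 0.33 (adjusted p 0.00292). Sox10, the transcription factor of this lineage, changed by -1.07 ± 0.25 (adjusted p 0.00373). Myelin basic protein, Mbp, did not pass (-0.56, adjusted p 0.118). For Pmp22 and Prx, lung RNA would give 2.38 and 1.24 CPM at the median lung marker ratio, or 20.8 and 10.8 CPM at the highest. Their means were 64.5 and 20.5 CPM in young and 29.1 and 6.85 CPM in old. For Mag and Sox10 the highest ratio gives 0.111 and 0.00804 CPM. The part of lung RNA in these falls was not tested, nor was how much nerve each dissected sample held. The old library at 50 h, highest for most denervation genes, had a high Schwann sum of 182 CPM, second among old libraries to the 186 CPM at 46 h.

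**Figure D3:**
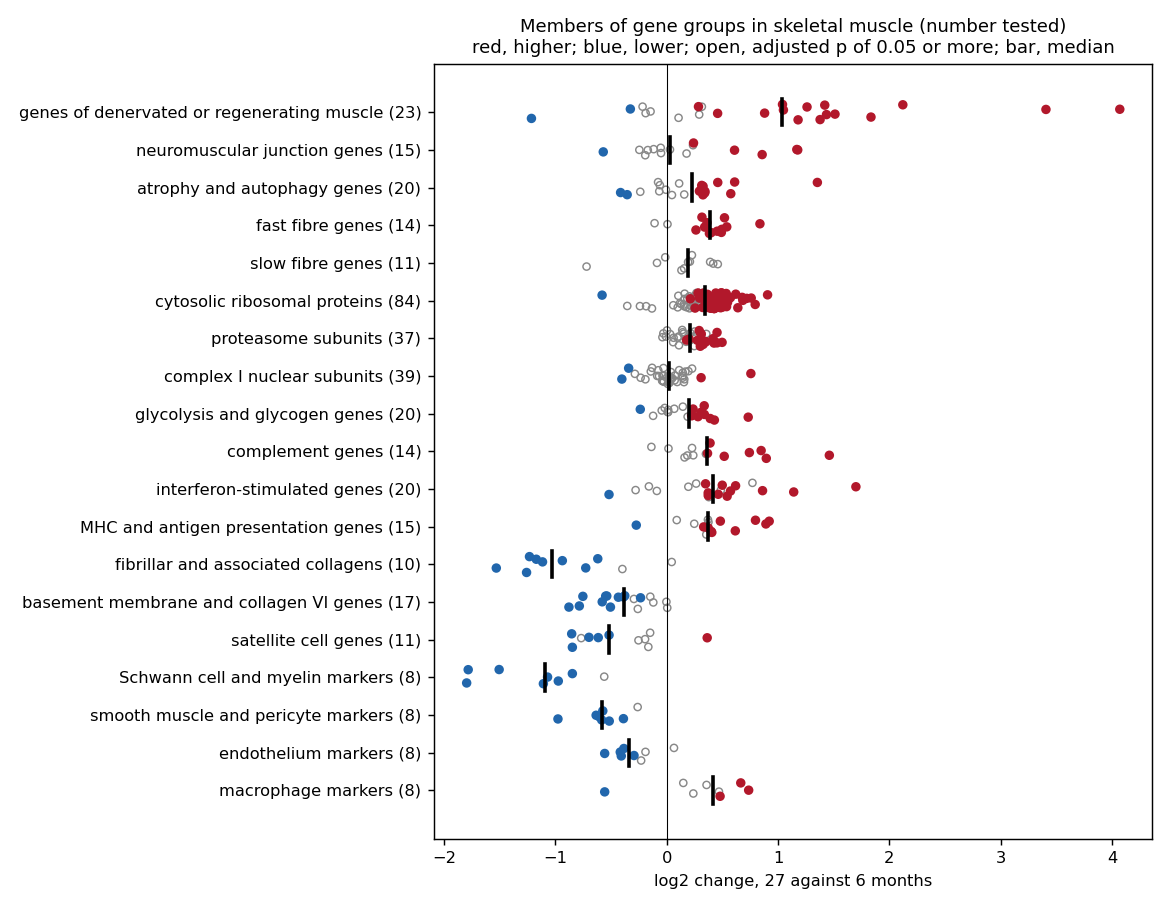
Log2 change at 27 against 6 months (x axis) of each tested member of 19 gene groups (number tested in brackets). Filled points passed an adjusted p of 0.05 (red higher, blue lower), open points did not, and the bar is the group's median, which runs from -1.09 for Schwann cell markers to 1.04 for denervation genes.

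Genes of fast fibres were slightly higher in old muscle and those of slow fibres gave no call. Of the 14 fast fibre genes, 12 rose and none fell (median 0.39), or 9 after removal of the length and GC trend. The fast regulatory light chain Mylpf had 1969, 2380.3 and 2500.4 CPM as lowest, median and highest value in young and 2540.2, 3708 and 7647 CPM in old, without overlap (0.84 ± 0.13, adjusted p 0.000177). Fast troponins Tnni2 (0.54, adjusted p 0.00813) and Tnnc2 (0.52, adjusted p 0.0112) and the calcium pump Atp2a1 (0.40, adjusted p 0.00692) rose less. Among myosin heavy chains of fast fibres, type IIb Myh4 rose (0.34, adjusted p 0.0288), while IIx Myh1 (0.01) and IIa Myh2 (-0.11) did not pass. Of 11 slow fibre genes edgeR called none, with 1 lower at an unadjusted p under 0.05 and 1 lower by DESeq2. The lowest adjusted p was that of Myh7b (-0.72, adjusted p 0.0534), and slow myosin Myh7 changed by 0.16 ± 0.32 (adjusted p 0.731). Creatine kinase Ckm (0.69, adjusted p 0.000464) and skeletal actin Acta1 (0.59, adjusted p 0.000568) were higher in every old library than in any young one. Titin, Ttn, whose transcript is among the longest known, gave -0.40 (adjusted p 0.0289), and 0.063 with the length and GC trend removed.

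Of 18 genes of excitation and calcium release, 4 rose and 1 fell (17.3% and 18.4% of all genes tested did). Cacng1, the gamma subunit of the muscle calcium channel, rose at all 12 times without overlap, from 330.4 ± 29.8 to 553 ± 90.9 CPM (0.84 ± 0.08, adjusted p 1.76e-06). Triadin, Trdn, which anchors the release channel, fell without overlap from 2446 ± 150.2 to 1485 ± 355 CPM (-0.65 ± 0.12, adjusted p 0.000452). The channels themselves, Cacna1s (0.04, adjusted p 0.819) and Ryr1 (-0.26, adjusted p 0.196), did not pass. Without the pair at 26, 54 or 62 h, 2 genes of the list fell.

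Protein turnover genes rose modestly. Of 20 atrophy and autophagy genes, 10 were higher and 2 lower (median 0.23). The metallothionein Mt2, a zinc-binding stress protein, rose most (1.35 ± 0.20, adjusted p 9.18e-05), from 5.07 ± 1.28 to 12.9 ± 6.98 CPM. The autophagy genes Map1lc3b (0.46, adjusted p 0.000174), Gabarapl1 (0.34, adjusted p 0.00675) and Sqstm1 (0.29, adjusted p 0.00928) rose together. Of the 2 muscle ubiquitin ligases that mark atrophy, MuRF1 (Trim63) rose by 0.33 (adjusted p 0.0144), whereas atrogin-1 (Fbxo32) gave -0.01 (adjusted p 0.982). Foxo1, a transcription factor that drives them, was lower (-0.35, adjusted p 0.0078), as was myostatin, Mstn, an inhibitor of muscle growth (-0.41, adjusted p 0.041). Without 18, 22, 30, 38, 46 or 50 h only 1 of these 2 falls was called. Of 37 proteasome subunits, 15 rose and none fell (median 0.21), among them Psmd2 (0.35, adjusted p 0.000274), Psmc5 (0.45, adjusted p 0.00043) and Psmd4 (0.50, adjusted p 0.000482).

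Of 84 cytosolic ribosomal protein genes, 51 were higher and 1 lower in old (median 0.35), with Rpl3 the most significant (0.91 ± 0.12, adjusted p 3.32e-05). These genes are short, and with the length and GC trend removed the numbers were 47 and 4 with a median of 0.18. Their share of counts ran from 1.51% to 1.94% in young and 1.60% to 3.83% in old libraries. Ribosomal genes share reads with many pseudogenes, so single values are uncertain.

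In energy metabolism, glycolytic genes rose slightly and most respiratory genes gave no call. Of 20 glycolysis and glycogen genes, 9 rose and 1 fell (median 0.20), or 5 and 1 with the length and GC trend removed. Gapdh (0.73, adjusted p 0.00109) and aldolase Aldoa (0.43, adjusted p 0.00374) rose, and hexokinase Hk2, which traps glucose in the fibre, fell (-0.24, adjusted p 0.017). Scd2, a fatty acid desaturase, fell from 58.1 ± 20.4 to 18.6 ± 6.42 CPM (-1.54 ± 0.08, adjusted p 5.11e-10). Lung RNA would give 4.63 CPM of Scd2 in young at the median and 40.4 CPM at the highest lung marker ratio. The part of lung RNA in this fall was not tested. Of 21 fatty acid oxidation genes 3 fell, a share below the 18.4% of all genes tested that did. The 3 were Cpt1b (-0.80, adjusted p 0.0176), which admits fatty acids to mitochondria, Pdk4 (-0.74, adjusted p 0.0221), which blocks pyruvate oxidation, and the coactivator Ppargc1a (-0.26, adjusted p 0.0461). With the length and GC trend removed, 1 gene of the list rose and 1 fell.

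Of 39 nuclear complex I subunits, 2 rose and 2 fell (median 0.02). Without the pair at 62 h, 11 fell, and with the length and GC trend removed 12 fell and the median was -0.12. Of 26 subunits of complexes II to IV 1 rose, and of 17 of ATP synthase 2 rose. None of these 2 groups fell in the full comparison, but without 62 h 1 and 3 did. Of 12 mitochondrially encoded genes 4 fell (2 without 18, 38 or 50 h). The 4 were mt-Atp6 (44.5 ± 17.4 and 18.9 ± 7.33 CPM, -1.12, adjusted p 0.000269), mt-Co3 (-1.10, adjusted p 0.00594), mt-Nd6 (-0.75, adjusted p 0.03) and mt-Co2 (-0.68, adjusted p 0.0339). Copies of mitochondrial sequence in the nuclear genome share reads with these genes.

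Extracellular matrix genes fell together. Of the 10 fibrillar and associated collagens 8 fell and none rose (median -1.03). Col1a1 (chr11:94936224-94953042), the alpha 1 chain of type I collagen, had 41.2, 64.9 and 165 CPM as lowest, median and highest value in young and 7.23, 24.6 and 38.4 CPM in old. The groups did not overlap (-1.53 ± 0.16, adjusted p 3.46e-06), and the old library at 62 h was lowest, with 7.23 CPM. Its partner chain Col1a2 had 105, 148 and 299.5 CPM in young and 36.4, 56.3 and 90.3 CPM in old, without overlap (-1.26 ± 0.12, adjusted p 1.65e-06). Type III collagen, Col3a1, fell by 1.11 on the log2 scale (adjusted p 3.92e-06), lower in old at all 12 times although the groups overlapped. Col12a1 (-0.40, adjusted p 0.132) and Col14a1 (0.05, adjusted p 0.81) did not pass. Lung RNA in young libraries would account for 0.421 CPM of Col1a1 and 1.28 CPM of Col3a1 at the median lung marker ratio, or 3.67 and 11.2 CPM at the highest, against young means of 69.9 and 162 CPM.

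Basement membrane and collagen VI genes fell in 11 of 17 cases and rose in none (median -0.39), among them Col4a1 (-0.78, adjusted p 5.73e-05) and Col15a1 (-0.88, adjusted p 1.72e-05). Of 26 other matrix and matrix-processing genes, 11 fell and 1 rose. Elastin, Eln, had 15.6, 21.00 and 38.1 CPM as lowest, median and highest value in young and 6.83, 8.63 and 19.5 CPM in old, with overlap (-1.06 ± 0.10, adjusted p 1.74e-06). Lung RNA would give 0.684 CPM of Eln and 2.30 CPM of Col4a1 at the median lung marker ratio, or 5.96 and 20.1 CPM at the highest. Their means were 23.0 and 137 CPM in young and 10.7 and 75.9 CPM in old. The part of lung RNA in these falls was not tested. Genes that process collagen also fell: the cross-linking enzyme Loxl2 (-0.82, adjusted p 0.000313), the procollagen protease Adamts2 (-0.74, adjusted p 1.4e-05) and the collagen chaperone Serpinh1 (-0.45, adjusted p 0.000336). The proteoglycan biglycan, Bgn, was the member that rose (0.34, adjusted p 0.00869). Fibroblast markers did not fall with them as a list: of 9, 1 rose and 2 fell, the sum was 1137 CPM in young and 1132 CPM in old by median, and Pdgfra, the receptor that marks them, gave -0.05 (adjusted p 0.676). The number of fibroblast markers called lower was 1 without 26, 34, 38, 42, 50 or 54 h.

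**Figure D4:**
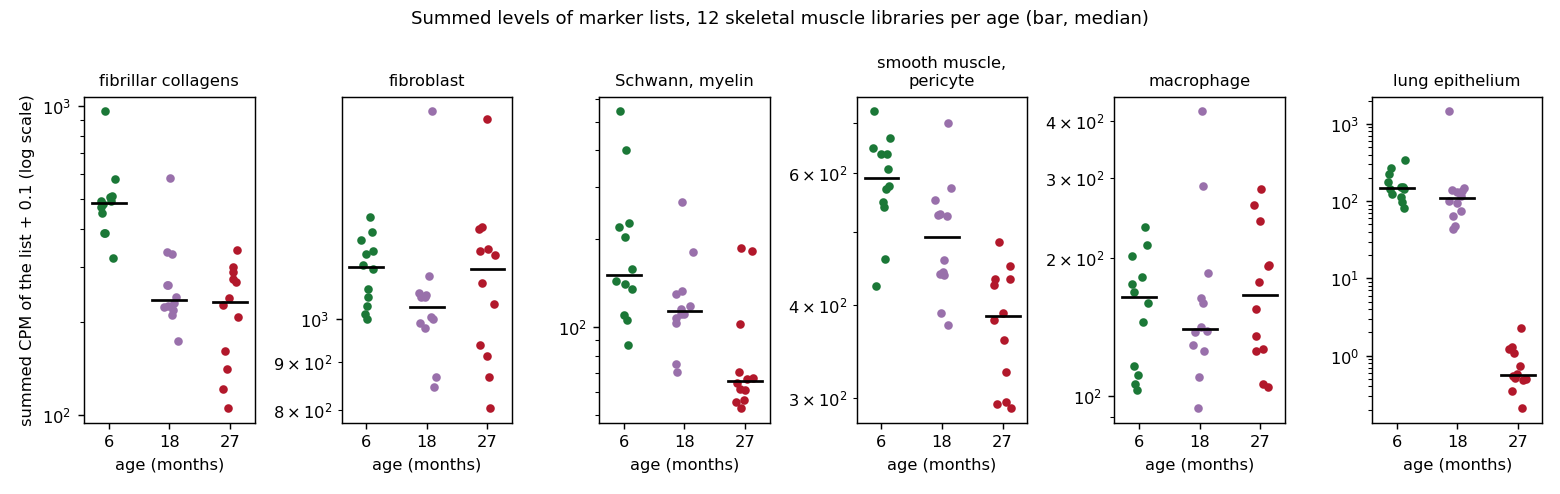
Summed CPM of 6 gene lists in each muscle library (log axes, CPM + 0.1), by age in months, with the median as a bar. Sums of fibrillar collagens, Schwann cell markers and smooth muscle and pericyte markers are lower by median at 27 than at 6 months, fibroblast and macrophage sums are similar, and lung epithelium markers are near 0 at 27 months.

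Markers of vessels were lower in old muscle. Smooth muscle and pericyte markers fell in 7 of 8 cases (median -0.58), with a sum of 423 to 725 CPM in young and 291 to 486 CPM in old. The pericyte genes Rgs5 (-0.57, adjusted p 0.000218) and Cspg4 (-0.63, adjusted p 0.000159) and smooth muscle actin Acta2 (-0.51, adjusted p 0.021) were among them. Endothelial markers fell in 5 of 8, among them Flt1 (-0.41, adjusted p 0.000338), a receptor for vascular growth factor, whereas Pecam1, which marks all endothelium, did not pass (-0.19, adjusted p 0.0636). Lung is rich in endothelium: at the median lung marker ratio, lung RNA would give 1.23 CPM of the 80.99 CPM of Flt1 in young muscle, and at the highest ratio 10.7 CPM. For Kdr, another such receptor, it would give 1.82 and 15.9 CPM, beside a mean of 56.8 CPM in young and 40.8 CPM in old. The part of lung RNA in these falls was not tested.

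Satellite cells are the stem cells of muscle. Of 11 of their genes tested, 5 fell and 1 rose (median -0.52). Pax7, which defines the cell, had 2.24, 3.11 and 3.73 CPM as lowest, median and highest value in young and 1.07, 1.82 and 2.48 CPM in old, lower at all 12 times although the groups overlapped (-0.61 ± 0.14, adjusted p 0.0024). Myf5 (-0.52, adjusted p 0.0383), the Notch target Heyl (-0.85, adjusted p 5.29e-05) and Notch3 (-0.70, adjusted p 0.00109) fell, the last of which is also made by pericytes. Fgfr4 fell without overlap (-0.85, adjusted p 0.000336). M-cadherin, Cdh15, which fibres express as well, was the one that rose (0.36, adjusted p 0.0109).

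Immune genes rose at low levels. Of 14 complement genes 7 were higher and none lower (median 0.36). C4b, a component of the classical pathway, had 5.70, 10.2 and 27.1 CPM as lowest, median and highest value in young and 8.95, 22.9 and 89.4 CPM in old, with overlap (1.46 ± 0.27, adjusted p 0.0009). C3 rose by 0.90 ± 0.20 (adjusted p 0.00276) and C1qb by 0.85 ± 0.20 (adjusted p 0.00326). Lung RNA would give 1.54 CPM of C4b at the median and 13.4 CPM at the highest lung marker ratio, against 12.1 CPM in young. Of 15 antigen presentation genes 9 rose and 1 fell (median 0.38), with class II H2-Aa (0.92, adjusted p 6.81e-05) and H2-Eb1 (0.89, adjusted p 0.000339) above class I H2-K1 (0.41, adjusted p 0.00123) in size. Of 20 interferon-stimulated genes 11 rose and 1 fell (median 0.42), among them Zbp1 (1.70, adjusted p 0.000113), a nucleic acid sensor at a low level, and Irf7 (1.14, adjusted p 6.14e-05), which amplifies the response. Ifit3b was the one that fell (-0.52, adjusted p 0.0134), a close copy of Ifit3 with which it can share reads.

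Macrophage markers gave 3 rises and 1 fall of 8 (1 rise without 18 or 50 h), with sums of 103 to 234 CPM in young and 104 to 283 CPM in old, and no T or NK cell marker was high enough to test. The chemokine Ccl8, made by macrophages among others, had 0.0982, 0.348 and 1.83 CPM in young and 1.16, 3.38 and 14.4 CPM in old, higher at all 12 times although the groups overlapped (3.50 ± 0.36, adjusted p 3.18e-06). The immunoglobulin heavy chain gene Ighg2c, a product of plasma cells, rose without overlap from 5.57 ± 2.89 to 34.3 ± 10.8 CPM (2.80 ± 0.19, adjusted p 2.73e-08), and Ighm by 0.71 ± 0.15 (adjusted p 0.00195). At 18 months they stood at 37.6 ± 17.5 and 383 ± 108 CPM, a change from young of 2.78 (adjusted p 1.03e-09) and 1.13 (adjusted p 2.71e-05).

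The rule for naming genes, which takes the 12 largest rises and falls with the same sign at all 12 times, gave genes outside these lists. Kcnab1, a subunit of potassium channels, rose by 1.98 ± 0.19 (adjusted p 1.43e-06) and differed little between 18 and 27 months (adjusted p 0.85; 10.6 ± 2.48, 42.5 ± 8.38 and 40.8 ± 15.98 CPM at 6, 18 and 27 months). Rrad, a small GTPase that restrains calcium channels, rose by 1.77 ± 0.28 (adjusted p 0.000239). The copine Cpne2 (1.94 ± 0.14), Plekhh1 (2.19 ± 0.20), Sh2d4a (1.58 ± 0.12), Tekt1 (1.69 ± 0.16) and the antisense transcript Srrm4os (2.23 ± 0.21) rose without overlap, with adjusted p of 4.15e-08 to 1.24e-06. Among the falls were Nrep (-1.81 ± 0.15), known from regenerating nerve and muscle, Cilp2 (-1.94 ± 0.28) and Col9a1 (-1.52 ± 0.22) of cartilage-like matrix, Rbms3 (-1.41 ± 0.11), the transcription factor Zbtb20 (-1.53 ± 0.09) and the imprinted antisense RNA Kcnq1ot1 (-1.55 ± 0.09). Their adjusted p ran from 2.5e-09 to 7.68e-05. For Rbms3, lung RNA would give 0.478 CPM (median lung marker ratio) or 4.17 CPM (highest) of the 8.36 CPM in young. Its part in this fall was not tested. Srrm4os and Kcnq1ot1 lie antisense to other genes, so the limit on strand holds for them too. Cdkn1b, the cell-cycle inhibitor p27, fell without overlap from 64.8 ± 4.84 to 27.7 ± 7.82 CPM (-1.15 ± 0.10, adjusted p 3.4e-07), opposite to Cdkn1a.

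A few genes had changed already at 18 months, and in the other tissues too. Nnt, a mitochondrial transhydrogenase that C57BL/6J mice are known to lack in functional form, had 151, 220.4 and 279.9 CPM as lowest, median and highest value in young, 43.5, 63.3 and 77.7 CPM in aged and 40.8, 71.4 and 107 CPM in old muscle. Wdfy1 had 33.3 ± 2.04 CPM in young and 10.3 ± 0.726 and 8.20 ± 1.71 CPM in aged and old. Gm15446, a predicted gene, was near 0 in young (0.131 ± 0.0684 CPM) and at 11.98 ± 2.42 and 10.9 ± 2.78 CPM later. The mean change over the other 5 tissues was -1.14 for Nnt, -1.85 for Wdfy1, -1.40 for Dynlt1b and 6.08 for Gm15446, and in muscle it was -1.70, -2.02, -1.62 and 6.31 in the same fit. The fall of Nnt was larger in muscle, with a difference of -0.56 from the mean of the other tissues (adjusted p 0.000176), while the differences of Wdfy1, Dynlt1b and Gm15446 did not pass (adjusted p 0.149, 0.322 and 0.932). Whether mice of the 3 ages had the same genetic background was not tested.

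Fewer genes differed at the intermediate age. Aged muscle differed from young in 434 of 14542 genes (2.98%; 1.68% higher, 1.31% lower), and old from aged in 4381 (30.1%; 13.5% higher, 16.6% lower). These comparisons share libraries with that of old against young, so their values are given side by side. Of the 2414 genes higher in old than young, 191 were called higher already in aged against young and 1392 in old against aged, and of the 2577 lower genes 165 and 1683 were. Krt18 changed by 1.64 up to 18 months (adjusted p 0.005) and by 2.42 after it (adjusted p 1.52e-06), and Sln by 0.97 and 2.46. Chrna1 changed by 0.09 (adjusted p 0.716) and then by 1.08 (adjusted p 4.78e-07). For collagens the larger value came first: Col1a1 changed by -1.17 up to 18 months (adjusted p 0.000431) and by -0.37 after (adjusted p 0.166), and Col3a1 by -1.02 and -0.09. In the lists, 4 denervation genes were higher at the first step and 15 at the second, while 6 fibrillar collagens were lower at the first and 2 at the second. Of Schwann markers 0 and 4 were lower, and of satellite cell genes 5 and 1. Whether the 2 steps differ was not tested. The old libraries also stand apart from both younger sets in depth and in lung RNA. Age and such a difference between sets of libraries cannot be told apart in these numbers of calls.

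Heart is the other striated muscle of the series, and the difference of the old against young change between muscle and heart was tested in 1 fit over the young and old libraries of all 6 tissues. Of 21552 genes, 28.1% were called: 1930 changed more upward in muscle (8.96%) and 4124 more downward (19.1%). With median-of-ratios factors the split was 2649 and 2934, as the median difference of the genes tested in muscle moved from -0.15 to -0.04. Over those 13990 genes, 12.3% changed more upward and 24.9% more downward. Denervation genes differed in 6 upward and 1 downward of 23, and collagens in 5 downward of 10. Krt18 changed by 0.11 in heart, and the difference was 3.87 ± 0.61 (adjusted p 1.95e-06). Sln, a gene of the atria in heart, changed by -1.27 there, and its difference of 4.58 ± 1.70 passed (adjusted p 0.0366) but not without the filter on low counts (0.0795). Chrnb1 (1.14, adjusted p 9.06e-06), Gadd45a (1.49, adjusted p 2.4e-10), Plekhh1 (2.31, adjusted p 7.15e-10) and Rrad (1.87, adjusted p 1.53e-07) also changed more upward in muscle. Chrna1 changed by 1.41 in heart and 1.09 in muscle in this fit, and the difference did not pass (-0.32 ± 0.51, adjusted p 0.712).

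Downward, Col1a1 (-1.32 ± 0.30, adjusted p 0.000444) and Fgfr4 (-1.92, adjusted p 0.0275), a fibroblast growth factor receptor, changed more downward in muscle than in heart. Ostn, the secreted peptide osteocrin, rose in muscle (0.69 ± 0.09) and changed by 3.49 in heart, a difference of -2.89 (adjusted p 7.39e-06). Of 16 complement genes 1 changed more downward in muscle, and C4b changed by 2.32 in heart and 1.36 in muscle (adjusted p of the difference 0.0766). Nuclear complex I subunits changed more upward in muscle in 29 of 39 cases, beside a median change of -0.56 in heart and -0.07 in muscle.

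**Figure D5:**
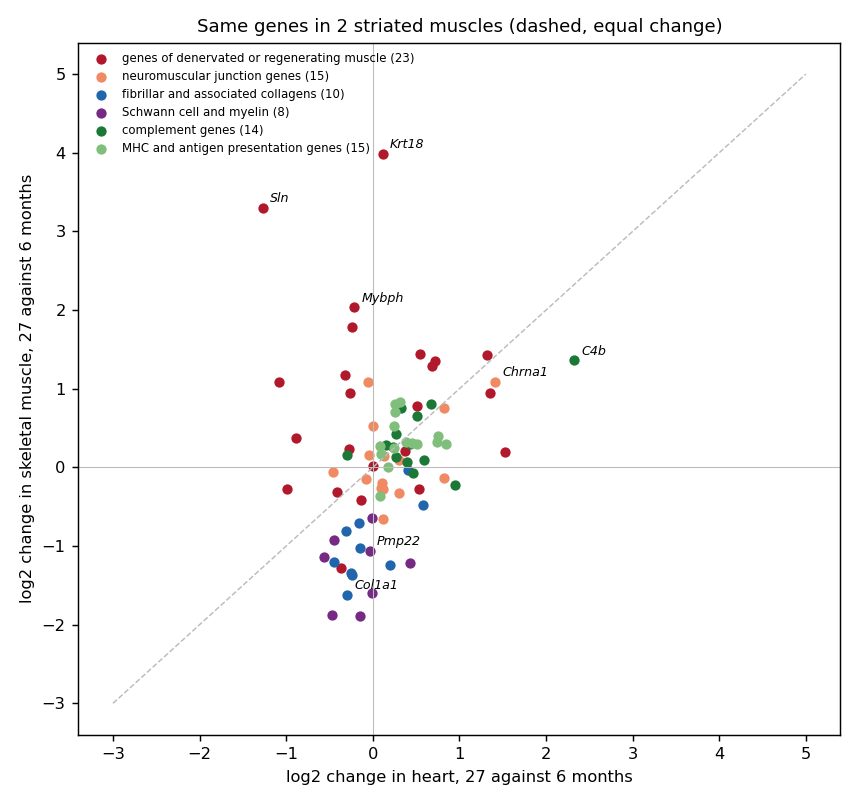
Log2 change at 27 against 6 months in skeletal muscle (y axis) and heart (x axis) for members of 6 gene groups, from 1 fit over both organs and the other tissues. Points above the dashed line changed more upward in muscle: Krt18 and Sln lie far above it, Col1a1 and Pmp22 below, and C4b and Chrna1 have positive changes in both.

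Against the mean change of the other 5 tissues, 994 genes changed more upward in muscle (4.61%, or 6.13% of the genes tested in muscle) and 2505 more downward (11.6%, or 14.9%), 16.2% in all. With median-of-ratios factors these were 1423 and 2158. Krt18 gave a difference of 3.30 ± 0.45 (adjusted p 1.29e-07), although it also changed by 2.24 in adrenal, where fast fibre genes changed by a median of 4.63. For Sln the estimate was 2.15 with a standard error of 127.22, against 0.27 in the fit of muscle alone. This contrast was too imprecise to give a result for Sln. Plekhh1 (2.20, adjusted p 4.89e-14), Ctxn3 (1.82, adjusted p 2.78e-06) and Cpne2 (1.78, adjusted p 7.22e-18) followed. The Wnt antagonist Frzb (-1.79, adjusted p 6.94e-08) and Cilp2 (-1.53, adjusted p 0.00824) changed more downward. So did 8 of 8 Schwann markers, 8 of 8 smooth muscle and pericyte markers, and 6 of the 10 collagens. For Kcnq1ot1 the mean change elsewhere was -1.47, against -1.64 in muscle (adjusted p of the difference 0.689), and for Zbtb20 it was -1.11 against -1.62 (adjusted p 0.00656).

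Genes were last ranked by likeness to Krt18 and Col1a1, as Pearson's r of the old minus young difference in log2(CPM + 0.5) over the 12 times. The 5 most like Col1a1 were Col3a1 (0.95), Gm30684 (0.93), Spred2 (0.93), Col1a2 (0.92) and Col5a1 (0.91), of which 3 are collagens. The 5 most like Krt18 were Fam118a (0.89), Ankrd37 (0.88), B4galt6 (0.88), Ctsh (0.87) and Irf5 (0.87), none of them on the denervation list, and of these Ankrd37 (0.47) and B4galt6 (-0.67) were called. The 12 differences share libraries and depth, and many genes were ranked, so these values describe the libraries only.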

How the data were processed

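RNA of 36 muscle libraries was analysed (12 each at 6, 18 and 27 months, each a pool of 2 samples), with the young and old libraries of the other 5 tissues for the tissue comparisons. The authors deposited a table of read counts per gene and a table of the same values scaled to the library total (CPM), for 55376 gene names, of which 2 stand on 2 lines and were kept apart. The submitters' processing notes name HISAT2, HTSeq, GRCm38 and mm10, without a role or version. No source used here gives the strand setting or the handling of reads that match several places. The deposited CPM differed from counts scaled by the total count by at most 4.96e-06 CPM.

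Counts were tested with edgeR 4.0.16 (R 4.3.3): genes kept by filterByExpr with a minimum count of 10, TMM factors, robust quasi-likelihood fit, age plus circadian time as a block, Benjamini-Hochberg adjustment over all genes tested, threshold 0.05. The block comes from the labelled circadian time, which libraries of each age share. There were 11 residual degrees of freedom, and the biological coefficient of variation was 18%. Standard errors are the log2 change over the square root of F. Aged muscle was tested in a fit of all 36 muscle libraries, and muscle against other tissues in a fit with tissue by time blocks. Alternatives were DESeq2 1.42.0, other scaling factors, other filters, no block, a cosine in its place, single cycles, each time left out, equal depth and, chosen after seeing the data, removal of the trend on transcript length and GC content. The code was tested on simulated counts. Chi-square per degree of freedom, over genes with a mean of at least 20 counts, was at least 5.61 in the 132 pairs of libraries of 1 age, so no pair agreed within sampling noise. The low depth of old libraries limits the precision of genes with few counts.

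Named genes were the 12 largest rises and 12 largest falls with an adjusted p under 0.05, the same sign at all 12 times, a mean of at least 2 CPM and at least 2% of the level in the tissue where the gene is highest, leaving out predicted genes, mitochondrial genes and immunoglobulin segments. To these came Krt18 and Col1a1, members of the gene lists, the 4 largest differences of each sign between muscle and heart or the other tissues, and the 5 genes most like Krt18 and Col1a1. A few genes that met this rule are not reported here. Members, gene lists and tests were chosen with earlier results of these data known. Promoter windows and gene coordinates are from RefSeq (GRCm38.p6), and transcript lengths from the longest transcript of each gene in the GENCODE annotation. As the labels do not say whether pooled samples came from separate animals, p-values measure the spread between libraries.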

Additional observations from a re-analysis of the deposited data

Results flagged for a closer look

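These genes changed differently with age in muscle and elsewhere, by a test of the difference of the log2 change at 27 against 6 months. No group was tested for single outlying libraries, as groups hold 12.

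Against heart, the difference was 4.58 for Sln, 3.87 for Krt18, 2.31 for Plekhh1 and 1.87 for Rrad. It was -2.89 for Ostn, -1.92 for Fgfr4 and -1.32 for Col1a1. Against the mean of the other 5 tissues, it was 3.30 for Krt18, 2.20 for Plekhh1, 1.82 for Ctxn3 and 1.78 for Cpne2, and -1.79 for Frzb and -1.53 for Cilp2.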

How the results depend on the processing

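Old against young muscle gave 4991 called genes, and between 4073 and 5904 in the other settings of the fit, except in the second cycle alone (42 to 62 h). That cycle called 448 (173 higher, 275 lower), among them 8 denervation genes higher and 6 fibrillar collagens lower. It called 0 fast fibre, proteasome or glycolysis genes higher and 1 cytosolic ribosomal protein gene. Of Schwann, smooth muscle and pericyte, and endothelial markers it called 0 lower. The median change in that cycle was -0.90 for Schwann markers and 0.26 for fast fibre genes. Leaving out each time in turn gave 4164 (without 34 h) to 5797 (without 62 h). Without the replicate block 5252 genes were called, 455 for aged against young, 4402 for old against aged, 5943 for muscle minus heart and 3447 for muscle minus the other tissues. Aged against young, with 434 calls, gave 733 by DESeq2, and 284 (without 34 h) to 604 (without 62 h) with each time left out, where old against aged gave 3564 to 5226. With the length and GC trend removed, Ttn changed sign, from -0.40 to 0.063. Of 177 called genes among those described, 56 were called with the same sign under every setting, 61 in the second cycle alone, 161 without the filter on low counts, 165 without the block or with the length and GC trend removed, 174 without 62 h and 177 by DESeq2. The cause of these changes was not tested. Muscle minus heart gave 5353 to 6054 calls and muscle minus the other tissues 2770 to 3764 over their settings. Depth, lowest in the old libraries, limits what can be called among genes of few counts.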

Other observations

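Polyamines are small charged molecules made from ornithine. Of 11 polyamine genes 4 fell and 2 rose in old muscle (background 18.4% and 17.3%). The decarboxylase genes Amd1 (-0.89, adjusted p 0.000955) and Amd2 (-1.22, adjusted p 0.000836) fell, near-identical copies that can share reads, while the antizyme Oaz1 rose (0.36, adjusted p 0.00373) and Odc1, the first enzyme of the path, did not pass (0.16, adjusted p 0.216). Among chaperones 6 of 19 rose and 1 fell, or 6 and 4 without the pair at 62 h. Small heat shock proteins of muscle were among those that rose, Hspb8 (0.64, adjusted p 1.67e-05), Hspb7 (0.69, adjusted p 0.00757) and Cryab (0.51, adjusted p 0.0194). The inducible Hspa1a (0.22, adjusted p 0.461) did not pass and Hsp90aa1 fell (-0.34, adjusted p 0.0161). For Hsp90aa1, lung RNA would give 3.67 CPM (median lung marker ratio) or 32.0 CPM (highest) of the 91.7 CPM in young. Its part in this fall was not tested. Of 14 genes of the integrated stress response 1 rose, Mthfd2 (0.33, adjusted p 0.0499), a call lost in 8 of the 12 fits with 1 time left out, and its factor Atf4 did not pass (0.10, adjusted p 0.37); without 62 h 3 fell.

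Senescence-linked genes gave 1 rise and 1 fall of 11, those of Cdkn1a and Cdkn1b. Without 30, 42, 46 or 62 h 2 rose, and without 38 or 46 h 2 fell. Mitochondrial ribosomal proteins gave 4 rises and 2 falls of 74, but 18 falls without the pair at 62 h and 8 rises without 54 h. Tendon markers fell in 3 of 6 cases, with the proteoglycan keratocan, Kera, lowest (-1.53, adjusted p 0.00105), and Scx, the tendon transcription factor, rose (0.36, adjusted p 0.0202); without 38 h none rose. Red cell genes rose in 4 of 5 cases, among them Alas2 (0.78, adjusted p 0.00226) and the globin Hba-a1 (0.77, adjusted p 0.00309), with sums of 127 to 334 CPM in young and 167 to 603 CPM in old, highest at 62 h. Blood left in the tissue was not tested.

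Of 19 clock genes 4 were higher and 3 lower by their mean over the day, near the shares of all genes tested (17.3% and 18.4%). The output factors Hlf (-0.83, adjusted p 0.000102) and Bhlhe41 (-0.65, adjusted p 6.96e-05) fell and Cry2, a repressor of the clock, rose (0.63, adjusted p 8.09e-05). In the old library at 62 h, the repressor Nr1d1 had 33.1 CPM and Dbp 112 CPM, against 58.3 and 83.4 CPM in the old library 24 h before. The young libraries at 62 and 38 h had 73.3 and 58.6 CPM of Nr1d1 and 155.6 and 156.8 CPM of Dbp. Arntl had 13.1 CPM in the old library at 62 h, against 19.0 CPM 24 h before and 12.5 CPM in young at 62 h. For Ciart these were 5.56, 3.41 and 8.02 CPM. The immunoglobulin light chain gene Igkc rose (2.01, adjusted p 0.00916) with the heavy chains, while Jchain (0.53, adjusted p 0.268) and Igha (0.58, adjusted p 0.467) did not pass.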
